A study of Mus musculus with 7 samples.

Results

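The muscle 3′UTR m6A peaks in which no GGAC site was listed numbered 988, of 2598 3′UTR peaks and of 5412 peaks in all in the muscle table. They were taken as every row that the authors annotated to the 3′UTR and for which they listed 0 sites of the GGAC motif. The share of 3′UTR peaks without a site was 38.0% (95% Wilson interval 36.2 to 39.9, covering counting error only), and these peaks lay in 869 genes.

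N6-methyladenosine (m6A) is laid down on mRNA by the METTL3-METTL14 methyltransferase at adenosines within a short consensus, of which GGAC is a frequent core, and it is enriched in the 3′UTR and around the stop codon. The 3′UTR is the part of the mRNA behind the stop codon, where RNA-binding proteins and microRNAs act on stability and translation. In m6A MeRIP-Seq, mRNA fragments are captured with an antibody against m6A, and the immunoprecipitate (IP) is sequenced beside its input. A peak is a stretch with more reads in the IP than in the input, so it marks a region and not a base, and the methylated adenosine can lie anywhere in it or, given the fragment length, near its edge.

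Muscle was taken at day 2 after cardiotoxin (CTX) injection from C57BL/6 METTL3 cKO mice (Pax7CreERT2; METTL3 flox/flox) and from control (CTL) mice (Pax7CreERT2; METTL3 wt/wt). Both groups carried the Cre allele and received tamoxifen on 5 days, and in both 1 IP and 1 input library were made. The number of animals per library and their age are not given in the sources used here. The Cre acts only in Pax7-expressing cells, whereas the labelled source of the RNA was muscle and its labelled cell type was muscle stem cell. The table lists only peaks that passed the authors' differential test between the genotypes, so the shares below are shares of those peaks and not of all m6A peaks in muscle. Each peak has 1 set of values, with none per genotype or library, so depth is unknown, no spread between samples can be given, and no test was made. Peaks and genes are not replicates, and the intervals below cover counting error only. Peaks were listed for 4 of 8 muscle stem cell markers (Pax7, Myod1, Itga7 and Sdc4), for 1 of 8 muscle fibre markers (Ttn), for 3 of 7 macrophage markers, for 2 of 4 neutrophil markers, for 2 of 5 fibroblast and fibro-adipogenic markers (Pdgfra and Col1a1) and for 1 of 4 endothelial markers (Cdh5). These counts take peaks of any class, with or without the motif. Of all these markers, only Ttn and the macrophage marker Itgam had a 3′UTR peak without the motif. A peak list holds no expression, so an unlisted marker may still be expressed. Among the genes of the m6A machinery named with the study, no peak was listed for Mettl3 itself.

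The peaks without the motif were short. Their length, summed over exon blocks, had a median of 211 bp with quartiles of 151 and 271 bp, whereas the 1610 3′UTR peaks that held the motif had a median of 446.5 bp with quartiles of 270 and 689 bp. The rule has its boundary between 0 and 1 site, and the 587 3′UTR peaks with exactly 1 site had a median of 298 bp. With 2 sites the median was 360 bp, and with 3 or more it was 689 bp. Of the 3′UTR peaks with the motif, 93.1% (91.8 to 94.2) lay in a single exon block, and of those with exactly 1 site 98.8% (97.6 to 99.4) did. Of the peaks without the motif nearly all did, 983 of 988 (99.5%, interval 98.8 to 99.8). The shortest were those of Mmp3, a matrix metalloproteinase, and Ap3s1, a subunit of an adaptor complex of vesicle traffic, at 119 bp each, and Apobec3, an antiviral cytidine deaminase, was among several at 120 bp. The longest were those of Zfp715, a zinc finger protein gene, at 1347 bp, 9930111J21Rik1 at 1045 bp, F830016B08Rik at 900 bp, H2-Q6, an MHC class I gene, at 894 bp, and Synpo2, an actin-binding protein of the muscle Z-disc, at 841 bp.

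**Figure D1:**
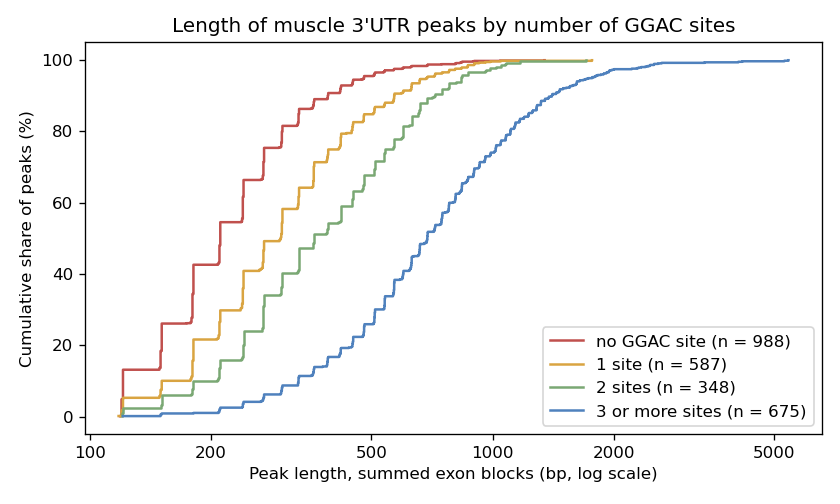
Cumulative share of muscle 3′UTR peaks (y axis, percent) by peak length (x axis, bp, log scale), with 1 line for each number of listed GGAC sites. The line for the 988 peaks without a site lies to the left of the others, with a median of 211 bp against 298 bp for 1 site and 689 bp for 3 or more.

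A short peak has little room for a 4-base word, so the share without a site was set against random sequence cut to the length of each peak, with all bases equally frequent. Such sequence would lack GGAC in 29.4% of the 3′UTR peaks, which is 765 peaks, whereas 988 lacked it. The share of CDS peaks without the motif was 15.5% (13.9 to 17.3), against 17.6% for random sequence of their lengths. Among 3′UTR peaks the excess was widest in the shorter ones. Of those of 151 to 200 bp, 68.5% (63.4 to 73.1) held no site, where random sequence would give 51.3%. Of those of 251 to 300 bp, 46.2% (40.6 to 52.0) held none, against 33.4%. At 301 to 400 bp the share was 31.4% (26.7 to 36.5), against 25.8%. At 401 to 600 bp it was 16.8% (13.5 to 20.7), against 14.6%. Above 600 bp the share was 3.87% (2.54 to 5.84), against 3.84%. In coding peaks of 201 to 250 bp the share was 31.0% (23.5 to 39.5), against 56.2% (51.4 to 60.9) in 3′UTR peaks of that length. Base composition was not measured here, and its part in these shares was not tested.

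**Figure D2:**
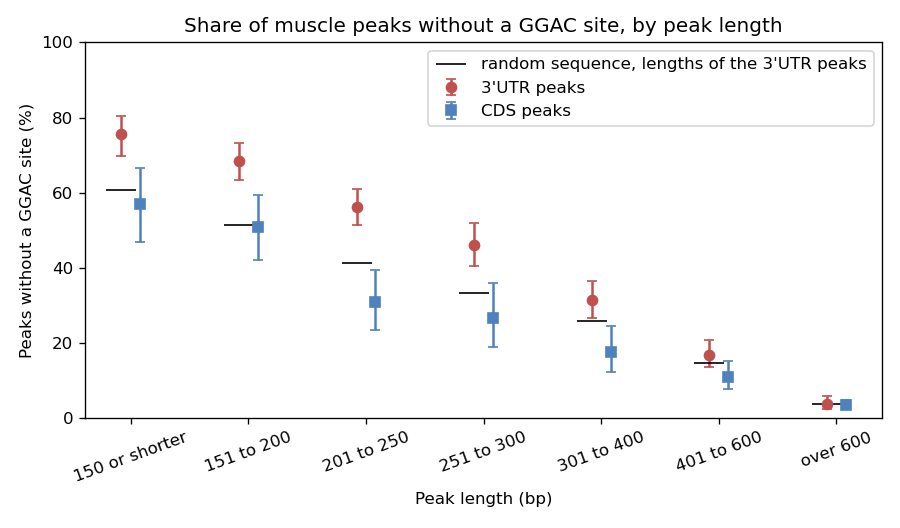
Share of muscle peaks without a GGAC site (y axis, percent, with 95% Wilson intervals) in classes of peak length (x axis, bp), for 3′UTR peaks (circles) and CDS peaks (squares), with the share in random sequence of the lengths of the 3′UTR peaks (horizontal marks). In each class up to 400 bp the interval of the 3′UTR share lies above the random share, and above 600 bp the share is 3.87% against 3.84%.

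The fold enrichment of a peak is the authors' ratio of IP over input. It ran from 1.35 to 362 in the peaks without the motif, with a median of 5.81 (interval of the median 5.52 to 6.19) and quartiles of 3.50 and 11.7. In the 3′UTR peaks with the motif the median was 16.3 (14.6 to 18), and in those with exactly 1 site it was 7.90 (7.20 to 9). A fold enrichment of 10 or higher was listed for 301 of the 988 peaks (30.5%), and one of 50 or higher for 28 (2.83%), against 403 of the 1610 3′UTR peaks with the motif. The peak's own p-value was listed as 0 for 15 peaks without the motif (1.52%) and for 263 peaks with it (16.3%). The CDS peaks without the motif, 268 in number, had the same median length of 211 bp and a median fold enrichment of 5.03 (4 to 5.7).

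Fold enrichment went with length in both kinds of 3′UTR peak, with a Spearman correlation of 0.52 over the 988 peaks without the motif and 0.72 over the 1610 with it. These are correlations across peaks of the same libraries. The medians were therefore also set side by side at like length. At 300 bp or shorter, where 80.0% of the peaks without the motif lay, their median fold enrichment was 4.995 (4.67 to 5.55, 790 peaks), against 5.22 (4.76 to 5.89, 508 peaks) for the peaks with it. Above 300 bp the gap stayed wide, at 13.25 (10.8 to 16.2, 198 peaks) against 31.75 (28.3 to 34.6, 1102 peaks), and there the median lengths were 390 and 571 bp. In each class up to 300 bp the median of the peaks without the motif was the higher of the pair, but the intervals of each pair overlap. The widest such gap was in the class of 251 to 300 bp, at 10.25 (8.70 to 12) against 7.525 (6.60 to 9.30), where the intervals overlap. In the longer classes the peaks with the motif had the higher median. The values were 9.80 (7.45 to 12.6) against 11.7 (10.1 to 12.9) at 301 to 400 bp and 15.75 (11.1 to 24.7) against 18.95 (17.3 to 23.4) at 401 to 600 bp. Above 600 bp they were 37.9 (22.0 to 107) over 21 peaks against 68.75 (57.9 to 80.0) over 522 peaks. The intervals overlap in each of these longer classes. The share of 3′UTR peaks without a site went from 66.3% (55.6 to 75.5) at a fold enrichment under 2 to 5.95% (3.96 to 8.84) at 64 or higher, against 51.0% and 6.61% in random sequence matched in length.

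**Figure D3:**
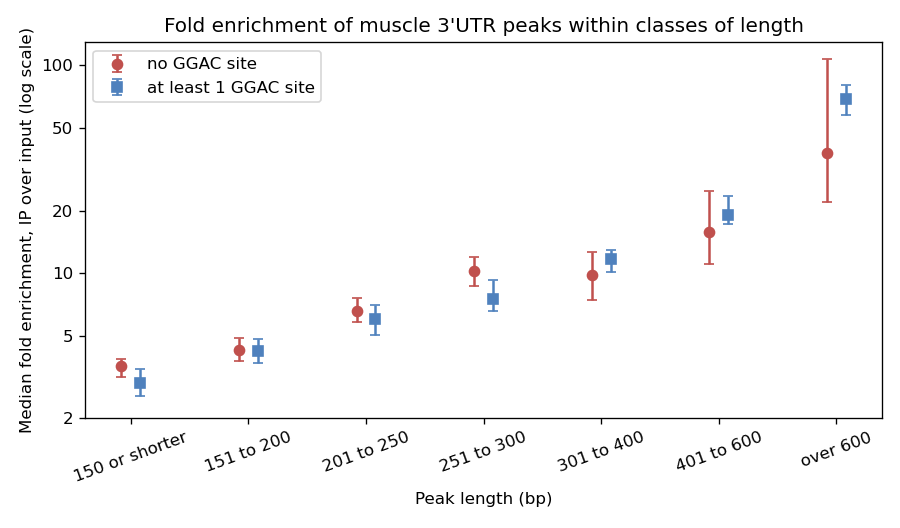
Median fold enrichment of muscle 3′UTR peaks, IP over input (y axis, log scale), in classes of peak length (x axis, bp), for peaks without (circles) and with (squares) a GGAC site. Bars are 95% binomial intervals of the median. Up to 300 bp the circles lie above the squares, and above 600 bp they stand at 37.9 against 68.75. The bars overlap in each class.

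The highest fold enrichments without the motif were spread over genes of unlike function. Positions are on GRCm38 (mm10). RefSeq held the gene of 985 of these peaks on that build, and 954 of them (96.9%) lay inside its span. The first was a peak of 390 bp in Gtpbp10 (ENSMUSG00000040464), a GTPase of mitochondrial ribosome assembly, at chr5:5538952-5539341 on the minus strand, and its fold enrichment of 362 ranked 62 among all 2598 3′UTR peaks. Zfp992, a zinc finger protein gene, followed with a peak of 809 bp and a fold enrichment of 237 at chr4:146467269-146468077. Mms19, which serves in iron-sulphur protein assembly, had a peak of 450 bp in 2 blocks with a fold enrichment of 196. The peak of 9930111J21Rik1 reached 182. Parp3, an ADP-ribosyltransferase of DNA repair, had a peak of 270 bp at chr9:106470918-106471187 with a fold enrichment of 166. None of these 5 genes had a listed 3′UTR peak with the motif.

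Slc38a2, a transporter of neutral amino acids, had a peak of 449 bp with a fold enrichment of 150 at chr15:96687871-96688319, centred 703 bp from the 3′ end of the gene. Echdc1, an enzyme that removes a side product of acetyl-CoA carboxylase, had one of 688 bp at 122, and Zfp715 one of 1347 bp at 120. Igfbp3, a carrier of insulin-like growth factors, had a peak of 418 bp in 2 blocks at 115. Fcgr2b, the inhibitory Fc receptor of B cells and myeloid cells, had a peak of 811 bp in 2 blocks at chr1:170960477-170961382 with a fold enrichment of 110. The Echdc1 and Fcgr2b peaks were not among the 954 placed inside the RefSeq span of their gene. The lowest values were 1.35 in H2-Aa, an MHC class II chain, 1.35 in Thbs1, which encodes thrombospondin 1, 1.39 in Ttn, the giant elastic protein of the sarcomere, 1.43 in Spcs3, a signal peptidase subunit, and 1.45 in St13, a cochaperone of Hsp70. All 5 of these peaks were 120 to 181 bp long. Ttn had 26 listed CDS peaks beside its 3′UTR peak.

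Some 3′UTRs overlap a gene on the other strand. The strand on which the GGAC sites were listed was not checked here. A listed peak of another gene overlapped 48 of the 988 peaks, and for 27 of these it lay on the opposite strand. The fold enrichments of the overlapping peaks were within 1.25-fold of each other in 25 of the 27, and in 14 of the 27 the peak on the opposite strand had a GGAC site. The Echdc1 peak at 122 overlapped a CDS peak of Rnf146, a ubiquitin ligase, which had 5 sites and a fold enrichment of 142. The 3′UTR peak of Tubgcp4, a gamma-tubulin complex subunit, and that of Trp53bp1, a DNA damage response protein, which had 2 sites, were both listed at 3.8. Mterf4 and Sned1 overlapped in 3′UTR peaks without the motif, both listed at 2.28. The library kit was stranded, but whether reads were counted by strand is not given in the sources used here, so the gene of origin of these peaks cannot be told apart. On the same strand, the overlaps included the Pcdhg genes, which share their last exons, and the pair Trim17 and Hist3h2a, listed at 41 and 36.9.

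Of the 2118 genes with a 3′UTR peak, 869 had at least 1 without the motif (41.0%, 39.0 to 43.1). A single such peak was listed in 769 genes, 2 in 87 and 3 or more in 13. For 485 of the 869 genes it was the sole peak of any kind in the table (55.8%, 52.5 to 59.1). In 307 genes (35.3%) a peak with the motif was listed somewhere else in the gene, and in 134 genes a CDS peak was listed. Where the gene had another listed peak, which was so for 503 of the 988 peaks, the nearest lay at a median distance of 686 bp, with quartiles of 298 and 1676 bp. For 123 peaks (12.4% of the 988) the nearest peak lay within 500 bp and held the motif. A gene can have further m6A peaks that the table does not list.

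Both kinds of 3′UTR peak occurred together in 194 genes, which allows them to be compared within a gene. Taking the strongest of each kind, the peak with the motif had the higher fold enrichment in 137 genes (70.6%, 63.9 to 76.6) and the peak without it in 57. The median ratio of the peak with the motif over the peak without it was 2.15 (1.87 to 2.65). The lengths differed as well, with medians of 420 bp and 210 bp. In the 26 genes where the lengths were within 1.25-fold of each other, the peak with the motif was higher in 12 and the peak without it in 14. Hs6st1, a heparan sulphate sulphotransferase, stood at one end, with a peak of 1438 bp at 808 with the motif and one of 121 bp at 1.93 without it. Aak1, a kinase of clathrin-mediated endocytosis, had 616 and 3.3, and Pik3r1, the regulatory subunit of PI3-kinase, had 410 and 4.4. At the other end, Slc38a2 had 2.07 with the motif, in a peak of 627 bp, and 150 without it, in a peak of 449 bp. Cdv3 had 7.45 with the motif and 77.3 without it, and Nmt1, an N-myristoyltransferase, had 4.2 and 22.7.

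**Figure D4:**
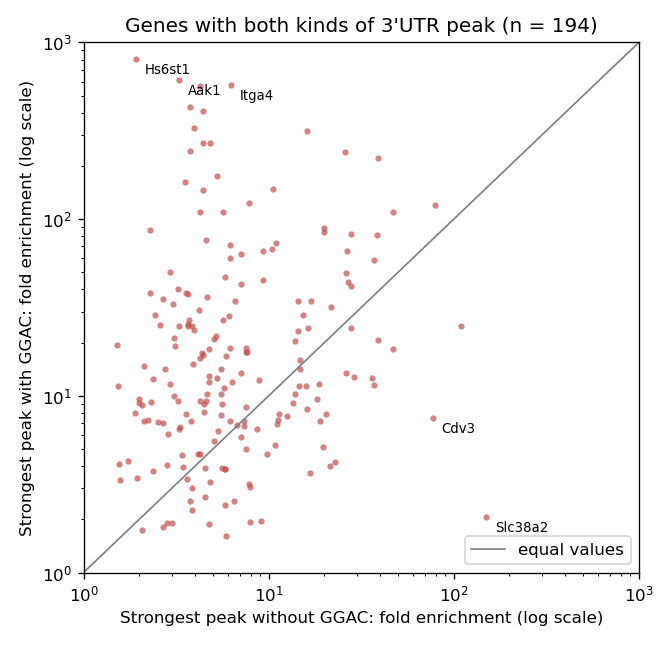
Fold enrichment, IP over input, of the strongest 3′UTR peak without GGAC (x axis, log scale) and of the strongest one with GGAC (y axis, log scale), 1 point for each of the 194 genes with both. Of the points, 137 lie above the line of equal values, with Hs6st1 at 808 against 1.93, and 57 below it, with Slc38a2 at 2.07 against 150.

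The 3′UTR peaks without the motif were centred at a median of 1374.5 bp (1241 to 1493) from the 3′ end of the gene span, with quartiles of 618.8 and 2606.5 bp, over 954 peaks. Those with the motif were at a median of 1208 bp (1139 to 1286), and the intervals overlap. In each length class the median distance was the greater for the peaks without the motif, from 1239 against 1238 bp at 301 to 400 bp to 1963.5 against 1192.5 bp at 401 to 600 bp, with 1510 against 948.5 bp at 201 to 250 bp. The share within 500 bp of the 3′ end was 19.9% (17.5 to 22.6) and 21.1% (19.1 to 23.2). Within the genes with both kinds and a position for each, the peak without the motif was the closer to the 3′ end in 113 of 186 (60.8%, 53.6 to 67.5). Where the lengths were within 1.25-fold this was so in 13 of 26. The distance is to the outermost 3′ end in the annotation and not to the end that was used in these cells.

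Some long 3′UTRs held several peaks without the motif. Hook3, an adaptor of dynein on microtubules, had 6 of them, along a stretch of 8816 bp on chromosome 8 that also held 2 peaks with 1 site each. In the order of the transcript, the fold enrichments without the motif were 14.2, 13.3, 7.5, 1.73, 47 and 18.9, and the peaks with a site had 5.54 and 18.3. The strongest peak in this 3′UTR was therefore 1 without the motif, of 421 bp, at chr8:26023760-26024180. Zbtb20, a transcription factor gene, had 5, with fold enrichments from 2.1 to 25.9, beside 7 peaks with the motif. Its 3′UTR peaks of both kinds together covered a stretch of 23295 bp, and the first in the transcript, with the motif, reached 239. The last peaks of this stretch, all with the motif, lay outside the RefSeq span of the gene. Cacna2d1, which encodes the alpha-2-delta-1 subunit of voltage-gated calcium channels, had 4, at 34.2, 4.11, 2.55 and 7.4, and no 3′UTR peak with the motif. Dnajc5, a synaptic cochaperone, had 3, from 1.9 to 4.26, and its peak with 1 site reached 16.3. Ankrd52, a subunit of protein phosphatase 6, had 3, from 2.76 to 7.95, against 3.06 for its peak with 1 site. In Itga4, the integrin alpha-4 chain of leukocytes, 3 peaks from 3.79 to 6.3 followed a peak of 1711 bp with 3 sites and a fold enrichment of 574.

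**Figure D5:**
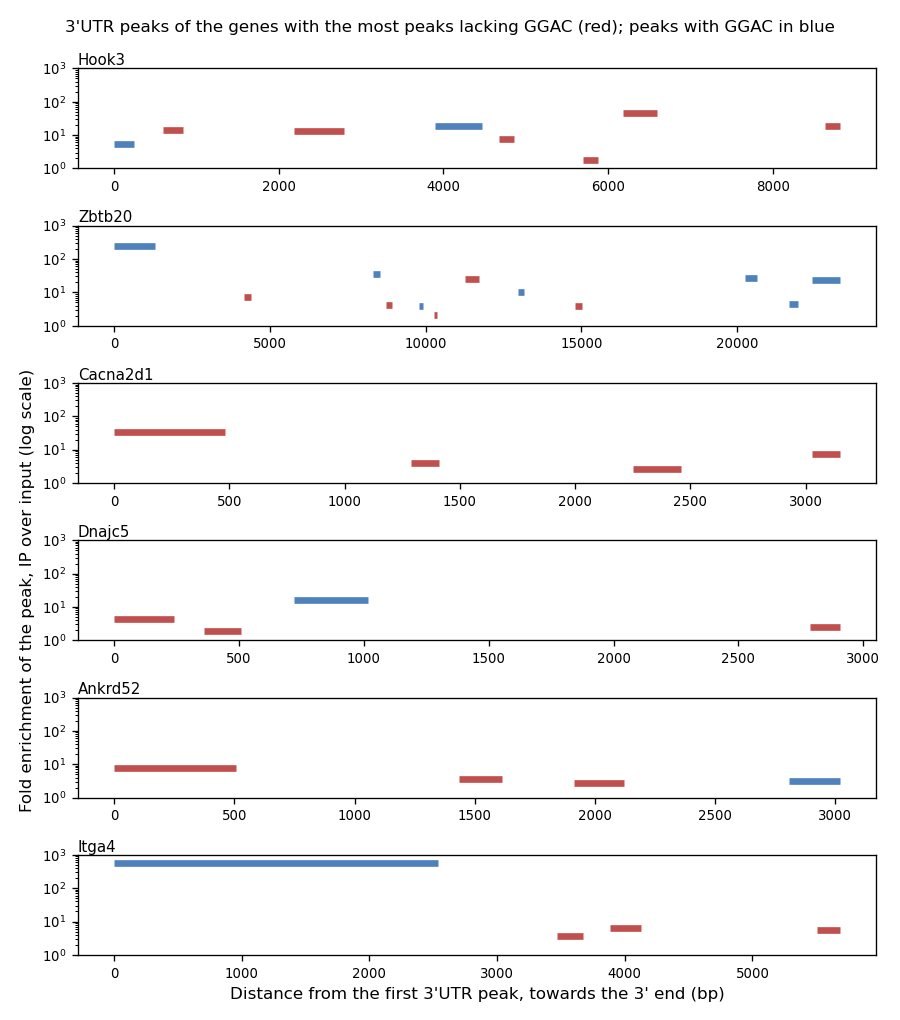
3′UTR peaks of 6 of the genes with the most peaks lacking GGAC, each drawn as a bar that covers its genomic span (x axis, bp from the first 3′UTR peak towards the 3′ end) at the height of its fold enrichment, IP over input (y axis, log scale). Peaks without GGAC are red and peaks with it blue. In Hook3 the highest bar is a peak without the motif at 47, and in Itga4 it is a peak with the motif at 574.

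The genes were next read by pathway, beside the 41.0% of all genes with a 3′UTR peak that had a peak without the motif. Of the genes named with the study, 6 had a 3′UTR peak. Alkbh5, an m6A demethylase, was the sole 1 of them with a peak that lacked the motif, of 121 bp at chr11:60555788-60555908, with a fold enrichment of 5.5. The 3′UTR peaks of Notch2 with 19 sites, Rbpj with 3, Maml1 with 2, Pax7 with 3 and Myod1 with 1 all held it. Among 40 Notch pathway genes, 9 had a 3′UTR peak and 4 had 1 without the motif. Adam10, the protease that sheds the Notch ectodomain, had a peak of 421 bp at chr9:70778102-70778522 with a fold enrichment of 43.7. The ubiquitin ligases Dtx3l and Dtx4, of the Deltex family, had strongest values of 7.11 and 3.84, and Mib1, the ligase that sends Notch ligands into endocytosis, had 2.91. Of the m6A writers, readers and erasers, 2 of the 3 genes with a 3′UTR peak were among them, Alkbh5 and Hnrnpc, an RNA-binding protein whose binding m6A can open, with 5.79.

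Of the myogenic and satellite cell transcription factors, 3 of 9 genes with a 3′UTR peak had 1 without the motif. Tcf12, an E-protein partner of the myogenic factors, had 19.6 in a peak of 421 bp, Mef2a had 3.78 and Mef2d 2.83. Mef2a had no 3′UTR peak with the motif, whereas Tcf12 and Mef2d had 1 each. Of the sarcomere and calcium handling genes, 4 of 14 had such a peak, and none reached 6. Trdn, the triadin of the calcium release complex, had 5.8, Tpm2, a tropomyosin, 4.38, Ldb3, a Z-disc protein, 3.06 and Ttn 1.39. The immediate-early and AP-1 genes had the lowest share of peaks without the motif among the lists with 10 or more 3′UTR peaks, with 2 of 12 (16.7%, 4.70 to 44.8), in Fosl2 at 7.57 and Zfp36l2 at 2.9.

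Of the extracellular matrix genes, 9 of 21 had a 3′UTR peak without the motif, close to the 41.0% of all genes. The aggrecan-cleaving proteases Adamts9 and Adamts5 had 19.8 and 19.2, and neither had a 3′UTR peak with the motif. Thbs2, which encodes thrombospondin 2, had 11.2 beside a peak with the motif, and Mmp3 had 5.62. Of the cytokine, chemokine and JAK-STAT genes, 6 of 15 had 1, led by Il33, an alarmin, at 20.4. The receptor chain genes Il10rb and Il4ra had strongest values of 9.1 and 7.87, and Cx3cr1, a chemokine receptor of monocytes and macrophages, had 4.48. None of these 6 genes had a 3′UTR peak with the motif. Only 22.3% of all genes with a 3′UTR peak without the motif also had 1 with it, so such absences are common. Of the innate immune and macrophage genes, 8 of 15 had 1. The highest was Fcgr2b at 110, in a peak not placed inside the RefSeq span of the gene. The next was Msr1, a scavenger receptor, at 4.77, followed by the complement gene C1qc at 3.16 and the integrin gene Itgam at 2.81.

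Of the cell cycle genes, 5 of 10 had a 3′UTR peak without the motif. Cdk6, a kinase of the G1 phase, had 3 of them, at 14.4, 5.85 and 3.63, Ccna2, cyclin A2, had 11.4, and Mcm4, a subunit of the replicative helicase, had 8.15. Ccnd2, cyclin D2, had 7.05 beside 2 peaks with the motif. Of the TGF-beta, BMP and myostatin pathway genes, 6 of 11 had 1, with the receptor Tgfbr2 at 27.9 in a peak of 181 bp, Ltbp1, which holds latent TGF-beta in the matrix, at 5.9, the receptor Bmpr2 at 4.56 and Ski, a repressor of SMAD proteins, at 4.41. Of the insulin, mTOR and FoxO genes, 8 of 22 had 1. Eif4ebp2, a translation repressor under mTOR, had 26.4, Deptor, an inhibitor of mTOR, 10.9, and the growth factor gene Igf1 had 10.1 and 4.69. Pik3ca, a catalytic subunit of PI3-kinase, had 6.18. Of the Wnt and Hippo genes, 5 of 7 had 1, with Tcf7l1, a transcription factor of the Wnt pathway, at 15.3, Dkk2, a secreted Wnt modulator, at 11.2 Tead1, a DNA-binding partner of YAP, at 5.84 and Mob1a, an activator of the LATS kinases, at 4.98. The lists are small, and the intervals of their shares of peaks without the motif all include the 38.0% of all 3′UTR peaks.

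C2C12 is a mouse myoblast line, for which 1 list of 5433 peaks was deposited from 2 IP libraries and 1 input library. The genes could be compared by name only, since 9.31% of the C2C12 peaks lay inside the GRCm38 span of their gene. Of the 866 matched genes with a 3′UTR peak without the motif in muscle, 296 (34.2%, 31.1 to 37.4) had any C2C12 peak and 100 (11.5%, 9.59 to 13.8) a C2C12 3′UTR peak. Over all 3811 matched genes with a listed muscle peak, these shares were 42.4% (40.8 to 44.0) and 15.0% (13.9 to 16.2). Among genes whose 3′UTR peaks in muscle all lacked the motif, 9.06% (7.12 to 11.5) had a C2C12 3′UTR peak. Where they all held it, 24.5% (22.1 to 26.9) did, and these intervals do not overlap. The share with a C2C12 coding-exon peak was 20.8% (17.9 to 24.0) and 21.4% (19.2 to 23.7), against 27.5% (26.1 to 28.9) of all matched genes.

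The gap in C2C12 3′UTR peaks differed with the strength and the length of the muscle peak. With a strongest 3′UTR peak under 8-fold, the shares were 9.87% (7.24 to 13.3) without the motif and 10.7% (7.88 to 14.4) with it. At 32-fold or higher, 2 of 46 genes without the motif had a C2C12 3′UTR peak (4.35%, 1.20 to 14.5), against 39.8% (35.6 to 44.2) of 492 genes with it. Where the strongest 3′UTR peak was 300 bp or shorter, the shares were 8.43% (6.36 to 11.1) without the motif and 8.99% (6.47 to 12.4) with it, and where it was longer they were 11.5% (7.21 to 17.9) and 31.0% (28.0 to 34.2). Of the genes with the highest fold enrichments, Gtpbp10, Zfp992, Mms19 and Parp3 had no C2C12 peak, Zfp715 had a C2C12 peak outside the 3′UTR, and Slc38a2 had 1 in the 3′UTR. The C2C12 list holds no expression values, and the part of gene expression in these shares was not tested.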

How the data were processed

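m6A MeRIP-Seq was performed on poly(A) RNA with an antibody against m6A and a stranded library kit. The submitters' processing notes name TopHat, MACS2 and mm10 with no version or role, and the column names of the muscle table are those of the exomePeak package. The authors called peaks over both genotypes in 1 table and deposited for each peak its blocks, its class, its GGAC sites, its fold enrichment (a ratio of IP over input) and its p-value. Deposited columns of the authors' differential test between genotypes (log2 fold change, p and FDR) were not used. The FDR was read only to see that 0 of 5412 listed peaks failed it.

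Length was summed over blocks, and starts were turned to count from 1. Shares have 95% Wilson intervals and medians have order-statistic intervals, which cover counting error only. The expected share was the exact share of random sequences of the length of each peak that lack GGAC. Bases were taken as independent and equally frequent, so any 1 window of 4 bases matched with a chance of 1 in 256. Genes were matched to RefSeq on GRCm38. The formula for the expected share and the interval of a median were tested on simulated data, and the other steps were not. In the mapping of columns to samples, 0 sample columns were left unmapped. Python 3.11.15, pandas 2.3.3, numpy 2.4.6, scipy 1.17.1 and matplotlib 3.10.9 were used.

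The peaks and gene lists were chosen with earlier results of these data known. Named genes were the 10 highest and 5 lowest by fold enrichment, the 5 longest and 3 shortest, 6 with the most such peaks, up to 4 genes per list by their strongest peak, and genes named with the study. Genes named for overlaps, for both kinds of 3′UTR peak or for C2C12 were chosen after their values were seen. No genome sequence was used here, so a separate search for GGAC or for other m6A consensus words was not run. A gene that the naming rule picked is not reported here.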

Additional observations from a re-analysis of the deposited data

How the results depend on the processing

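The share of 3′UTR peaks without the motif, 38.0%, was 20.2% among the 1117 3′UTR peaks whose fold enrichment reached the median over the whole table. The share of genes with another listed peak went from 44.2% to 35.3% when only peaks with the motif counted, and the share with a C2C12 peak from 34.2% to 11.5% when only the C2C12 3′UTR counted. In the other 15 settings of the main results the values moved by less than their margin, which is not given here. Some of these settings could hardly move a value. Counting each set of coordinates once removed nothing, as 0 of the 988 peaks shared its exact coordinates, and peaks offset by a few bp were kept. The genomic span differed little from the length, with 99.5% of the peaks in a single block. The ratio of the median fold enrichment without the motif over that with it, 0.36, turned to 1.21, 1.02, 1.10 and 1.36 in the length classes of 150 bp or shorter, 151 to 200, 201 to 250 and 251 to 300 bp, and was 0.84, 0.83 and 0.55 in those of 301 to 400, 401 to 600 and over 600 bp. In each of these length classes the intervals of the paired medians overlap. At 300 bp or shorter as a whole, the medians were 4.995 without the motif and 5.22 with it. The length classes, the C2C12 classes and the expected share from the density of sites were added after seeing the data. A search for GGAC or for other consensus words in the genome, and base frequencies of the peaks, were not run. No paired analysis was possible because the table holds no value per library and each genotype had 1 library of each kind, and for the same reason no replicate could be left out. Depth is unknown, so a weak peak cannot be told from a shallow one.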

Other observations

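The larger families lay near the 41.0% of all genes with a 3′UTR peak, and the 38.0% of all 3′UTR peaks, so their counts set none of them apart. Of these, 20 of 41 zinc finger genes with a 3′UTR peak had 1 without the motif, and 24 of their 56 3′UTR peaks lacked it (42.9%, 30.8 to 55.9). After Zfp992 and Zfp715 the next were Zfp462 at a fold enrichment of 43.2 and Zbtb20 at 25.9. Of the ubiquitin ligase and deubiquitinase genes, 20 of 43 had such a peak, with the deubiquitinase gene Otud6b at 41.5, Trim17 at 41 and Trim16 at 19.6 among them. Of the solute carrier genes, 11 of 33 had 1. After Slc38a2 these were led by Slc16a6, of the monocarboxylate transporter family, at 23.1 and the mitochondrial carriers Slc25a30 and Slc25a12 at 21.3 and 14.1. The respiratory chain and circadian clock lists had 1 gene each with a 3′UTR peak and 0 without the motif, and the ribosomal protein list had 1, Rpl7l1, at 12.6.

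The share of 3′UTR peaks without the motif lay above that of random sequence of their lengths on each of 20 chromosomes. It ran from 29.4% to 45.3% on the autosomes. On several of them the interval of the share includes the random share, as on chromosome 7, the lowest (22.9 to 36.8, against 25.5%). Chromosome X, picked here as the highest of the 20, had 29 of 50 (58.0%, 44.2 to 70.6) against 36.3% in random sequence and 38.0% over all chromosomes. The 50 peaks had a median length of 240 bp.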
